A study of Rattus norvegicus with 4 samples.

Results

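The genes followed here were 9 regulators of G protein signalling (RGS), Rgs2, Rgs3, Rgs4, Rgs5, Rgs7, Rgs8, Rgs9, Rgs10 and Rgs16, chosen by symbol from the 32883 genes measured by RNA-seq in the rat carotid body (CB). The CB is a sensory organ beside the carotid artery, and its glomus cells respond to low blood oxygen. CBs of Sprague-Dawley rats were taken from rats of day 5 (neonates) and day 21 (adults), and 2 libraries were made at each age. By the submitters' series design each library pooled the CBs of 6 pups or 3 adults. No treatment, exposure or genetic change is named for either age beyond the urethane with which, by the paper, the pups were killed. The paper describes larger pools and 3 biological replicates per age, and it says that both sexes were included. The values are therefore averages over animals. The p-values rest on the spread between 2 pools per age, with the spread of each gene estimated partly from that of the other genes tested. All 9 genes had reads, and 8 of them were tested, since they reached 1 CPM (counts per 1000000 counts of the library) in 2 or more libraries. Rgs8 did not. Values of single genes are given in the order of the replicate numbers, and sums over markers from the lower to the higher library.

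RGS proteins speed up the hydrolysis of GTP by the alpha subunit of heterotrimeric G proteins and so shorten the signal that a G protein-coupled receptor starts. They fall into subfamilies by the sequence around the shared RGS domain. Rgs2, Rgs3, Rgs4, Rgs5, Rgs8 and Rgs16 belong to the R4 subfamily, which act on the Gi/o and Gq classes, with Rgs2 preferring Gq. Rgs7 and Rgs9 belong to the R7 subfamily, which act on Gi/o and are held stable by the beta subunit Gnb5. Rgs10 belongs to the R12 subfamily. In the CB, dopamine, adenosine, ATP and acetylcholine all act partly through such receptors.

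Among the 9 genes, Rgs5 had the widest difference between ages, with 3.49-fold more message in adults, and it alone passed the 2-fold minimum that the study used. Rgs2, Rgs3 and Rgs9 were higher in neonates by between 1.67-fold and 1.996-fold, and Rgs10 by 1.23-fold with a call that depended on the scaling. Rgs4, Rgs7 and Rgs16 did not pass the test. In edgeR's quasi-likelihood model, with p-values adjusted by Benjamini-Hochberg across 13843 genes, 4 of the 8 tested RGS genes were thus higher in neonates and 1 was lower (adjusted p under 0.05). Of all genes tested, 31.2% were higher and 31.1% lower by the same rule, and 7.68% were higher and 13.2% lower with the 2-fold minimum added. The median log2 fold change, neonate over adult, was 0.29 for the 8 genes and −0.0029 for all genes tested. Scaled by library size alone, without the TMM factors, 2584 genes were higher and 6000 lower in neonates, so that the share of higher genes among those called was 30.1% instead of 50.1%, and the median of all genes moved to −0.25. Of the RGS calls, only that of Rgs10 was lost under this scaling.

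The 4 libraries held between 36286191 and 39476110 estimated counts, at which 3 counts, taken as the floor of detection for counting error alone, amount to 0.0760 to 0.0827 CPM. The libraries differed in more than the RGS genes. The parathyroid markers Pth, Gcm2 and Casr summed to 197 and 1616 CPM in the neonatal libraries and to 0.0265 and 0.0551 CPM in the adult libraries, with Pth and Gcm2 at 0 in both adult libraries. Mitochondrially encoded genes took 15.6% and 18.7% of the neonatal counts and 9.06% and 9.08% of the adult counts. Defining markers of glomus cells were present in all 4 libraries, with Th, the rate-limiting enzyme of dopamine synthesis, at 917 and 781 CPM in neonates and at 1517 and 1242 CPM in adults. Dbh, which makes noradrenaline from dopamine, differed the other way, at 194 and 129.9 CPM against 90.4 and 64.98 CPM. The glomus genes thus did not move as one. Their part in the results on the RGS genes was not tested. In RNA of a whole organ, fewer cells of a type and less RNA per cell cannot be told apart.

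**Figure D1:**
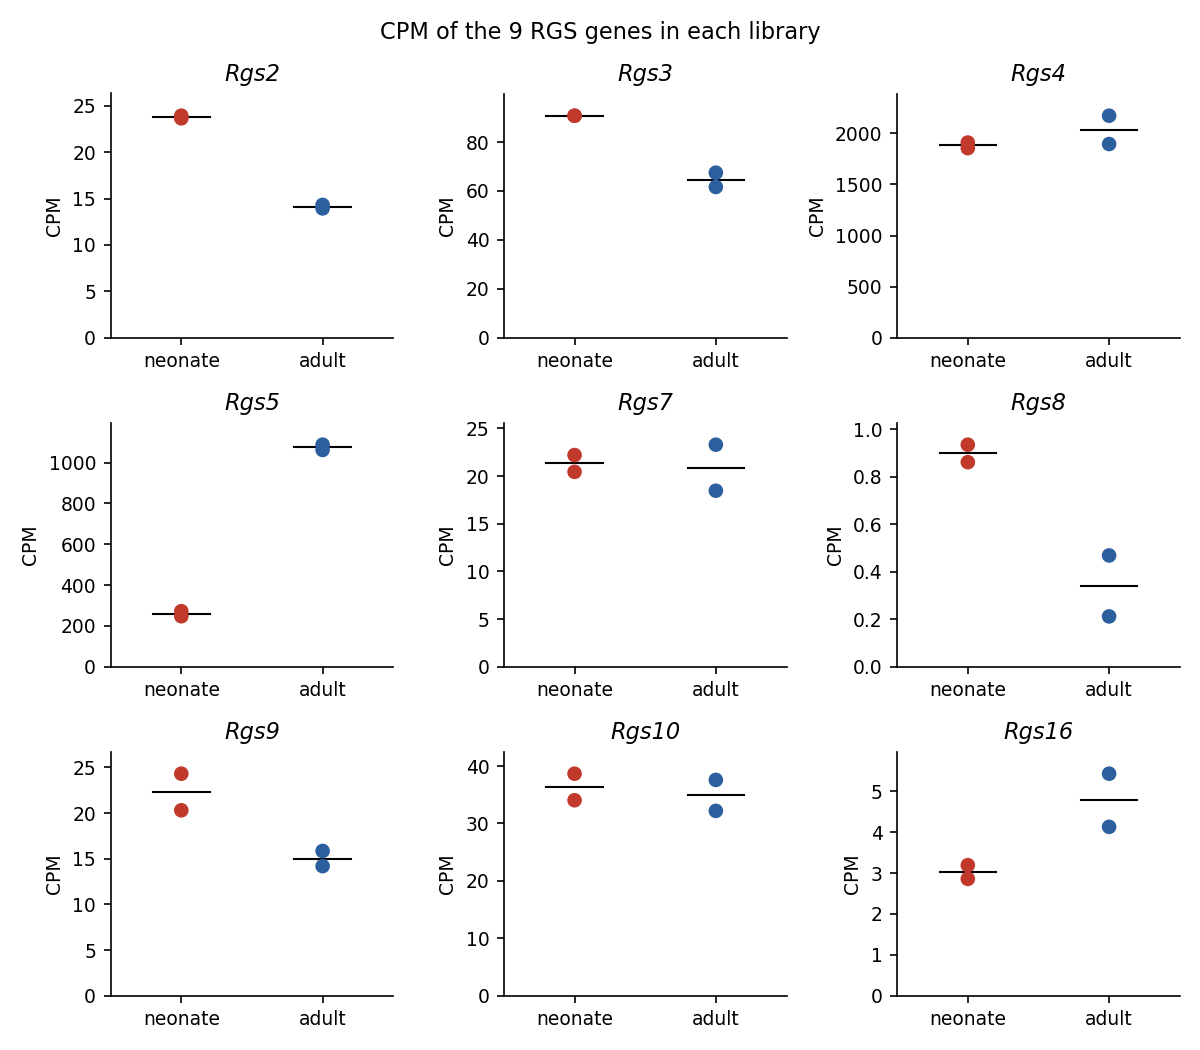
CPM, scaled by library size, of each of the 9 RGS genes in the 2 neonatal (day 5) and 2 adult (day 21) libraries, one panel per gene with its own linear axis from 0. Points are libraries and short bars are means. Rgs5 sits at 247 and 272 CPM in the neonatal libraries and at 1062 and 1088 CPM in the adult libraries, while the points of Rgs4, Rgs7 and Rgs10 overlap between ages.

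Rgs5 (ENSRNOG00000002730) is an R4 protein known as a marker of pericytes and arterial smooth muscle and as an inhibitor of Gq and Gi signalling in vessel walls, and it has also been described in glomus cells. It stood at 272 and 247 CPM in the neonatal libraries and at 1088 and 1062 CPM in the adult libraries, or 259.5 ± 17.4 against 1075 ± 18.2 (SD, n = 2). The ages did not overlap, and the gap between them was far larger than the spread within either age. Its log2 fold change, neonate over adult, was −1.80 (SE 0.099, 95% interval −2.03 to −1.58), which is 3.49-fold higher in adults, with an adjusted p of 3.1e-06 by edgeR. It ran from −2.05 to −1.70 over 13 alternatives in scaling, tool, filter and libraries, all of them past the threshold.

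Most pericyte and smooth muscle markers differed in the same direction as Rgs5 but by less. Of 12 such markers tested, 8 were lower in neonates, 2 were higher and 2 did not pass, at a median log2 fold change of −0.53. Of all genes tested, 31.1% were lower and 31.2% higher. The 2 higher markers became 1 by library size alone. Among the 12 markers the pericyte genes Higd1b and Vtn were at −1.10 and −1.01, the pericyte receptor Pdgfrb was at 0.31, and the potassium channel subunit Kcnj8, another pericyte marker, was at 0.66. The 12 markers summed to 1121 and 1259 CPM in neonates and to 1537 and 1789 CPM in adults, and none was at 0 in any library. After TMM scaling the sums lay closer together, at 1246 and 1349 against 1425 and 1636. Per CPM of that sum, Rgs5 stood at 0.243 and 0.196 in neonates and at 0.708 and 0.594 in adults, so the ages did not overlap on this measure either. Glomus markers summed to 4669 and 5751 CPM in neonates and to 5151 and 6174 CPM in adults, which overlapped, as they did after TMM scaling. The largest term of the higher neonatal sum was Chga, at 1552 CPM in neonate replicate 1. It was at 740 CPM in neonate replicate 2 and at 848 and 723 CPM in adults. Neonate replicate 1 also held more Pth, and whether the glomus sums overlap without Chga was not tested. Immune markers, of which the lymphocyte genes Cd3e and Ms4a1 were at 0 in some libraries, summed to 62.8 and 70.0 CPM against 190 and 193 CPM. Cd74 took the largest part of that sum, at 16.6 and 18.2 CPM against 108 and 109 CPM. Csf1r was at 14.5 and 17.5 CPM against 42.1 and 47.0 CPM. Aif1 differed the other way, at 16.2 and 17.3 CPM against 15.7 and 13.0 CPM (log2 fold change 0.47, adjusted p = 0.018 by edgeR). Cd68 did not pass (0.32, adjusted p = 0.24 by edgeR). Of 7 immune markers tested, Cd79a reached 1 CPM in the neonatal libraries alone, so its call had only 1 direction open to it. Of the other 6, 1 was higher in neonates, 3 were lower and 2 did not pass (median log2 fold change −0.62). By library size alone, 0 of the 7 were higher. Fibroblast markers summed to 5780 and 7249 CPM against 9415 and 10080 CPM. The part of a change in the mix of cells was not tested.

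Rgs4 (ENSRNOG00000002773), an R4 protein of nerve cells, heart and smooth muscle that acts on Gi/o and Gq, had the most reads of the 9 genes in every library. It was at 1910.4 and 1856 CPM in the neonatal libraries and at 2173 and 1896 CPM in the adult libraries, or 1883 ± 38.7 against 2035 ± 196 (SD, n = 2). The lower adult library lay between the neonatal libraries, so the ages overlapped. The test gave a log2 fold change of 0.13 (SE 0.11, 95% interval −0.11 to 0.38, adjusted p = 0.31 by edgeR). In linear terms the interval ran from 0.924-fold to 1.30-fold, so that a difference of 2-fold in either direction lay outside it. The sign followed the scaling, at −0.11 by library size alone and above 0 under every other alternative, up to 0.25, and none of the 13 passed. Per CPM of summed glomus markers Rgs4 stood at 0.332 and 0.397 in neonates and at 0.352 and 0.368 in adults, which again overlapped.

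The balance of the reads of this pair differed between ages without overlap. Rgs4 had 7.03 and 7.51 times as many counts as Rgs5 in the neonatal libraries and 1.998 and 1.78 times as many in the adult libraries. This ratio is within a library, so it does not depend on the scaling, although it is a ratio of counts and not of molecules, since transcript lengths were not used. Of all counts of the 9 genes, Rgs4 took 80.3% and 80.6% in neonates and 63.6% and 61.0% in adults, and Rgs5 took 11.4% and 10.7% in neonates and 31.8% and 34.2% in adults. Each of the other 7 genes took at most 3.94% in any library, the share of Rgs3 in the second neonatal library.

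**Figure D2:**
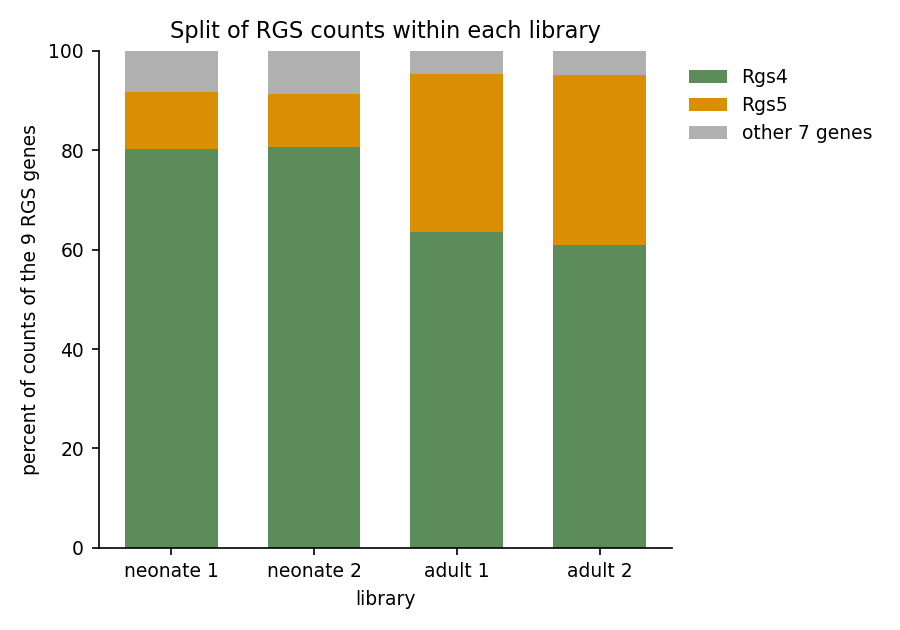
Share of the summed counts of the 9 RGS genes taken by Rgs4, by Rgs5 and by the other 7 genes, in percent of counts per library, with 1 stacked bar per library and an axis from 0. The Rgs5 share is 10.7% to 11.4% in neonates and 31.8% to 34.2% in adults, and the Rgs4 share is 61.0% to 80.6%.

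Rgs4 and Rgs5 are neighbours on the genome. In the RefSeq gene table for GRCr8, a later assembly than the Rnor_6.0 used for the counts, 6 of the 9 genes lie on chromosome 13, with Rgs5 next to Rgs4 and Rgs8 next to Rgs16 among protein-coding genes. The bases before the annotated start of Rgs4 are shown here from RefSeq on GRCr8, since Rgs4 holds most of the reads of the family at both ages, at chr13:84475885-84476134 on the minus strand, written 5′ to 3′ along the gene. Capitals mark matches, on either strand, to CCAAT (the CCAAT box), TGACG (a core of the cAMP response element) and TATAAA (the TATA box). ATTGG and CGTCA are CCAAT and TGACG read on the other strand.

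Rgs4: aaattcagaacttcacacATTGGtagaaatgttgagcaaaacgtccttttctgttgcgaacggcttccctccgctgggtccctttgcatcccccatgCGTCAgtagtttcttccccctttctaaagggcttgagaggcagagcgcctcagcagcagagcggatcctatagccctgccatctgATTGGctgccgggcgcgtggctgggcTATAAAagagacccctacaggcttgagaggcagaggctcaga

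The TATAAA match lies 42 bases before the annotated start. Within windows of 300 bases (250 before the start and 50 after it), TATAAA was present in Rgs3 and Rgs4 among the 9 genes and in 14.22% of all 33469 promoters in the table. TGACG was present in Rgs2, Rgs3 and Rgs4 and in 21.2% of all promoters, and CCAAT in Rgs2, Rgs4, Rgs8, Rgs9 and Rgs16 and in 37.49%. ACGTG, a core of the hypoxia response element that can overlap TGACG, was present in Rgs7 alone of the 9 and in 19.25%. None of these 4 motifs was in the window of Rgs5. The annotated starts of Rgs5 and Rgs2 are their start codons, as in 9% of the promoters in the table, so their windows end inside the coding part, and where transcription starts was not established for them. Matches are letters only, and binding was not measured.

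Rgs16 (ENSRNOG00000027024), an R4 protein that acts on Gi/o and Gq and is induced by many stimuli, was at 3.19 and 2.86 CPM in neonates and at 4.13 and 5.43 CPM in adults. Both adult libraries were above both neonatal ones. Its log2 fold change was −0.41 (SE 0.27, 95% interval −1.03 to 0.21) with an adjusted p of 0.22 by edgeR. It stayed below 0 in the 12 alternatives that gave a value and passed in none of them, and a mean of at least 5 CPM left it untested.

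Rgs2 (ENSRNOG00000003687), which prefers the Gq class and is known for lowering the response of vessels to constrictors, was at 23.7 and 23.9 CPM in neonates and at 14.3 and 13.9 CPM in adults, or 23.8 ± 0.201 against 14.1 ± 0.265 (SD, n = 2). Each pair of libraries was closely matched and the ages did not overlap. Its log2 fold change was 0.997 (SE 0.11, 95% interval 0.75 to 1.25, adjusted p = 8.5e-05 by edgeR), and all 13 alternatives passed, between 0.75 and 1.03. At 1.996-fold it lay just under the 2-fold minimum.

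Rgs3 (ENSRNOG00000024501), an R4 protein made in long and short forms that acts on Gi and Gq, was at 90.7 and 90.8 CPM in neonates and at 61.6 and 67.5 CPM in adults, again without overlap. The log2 fold change was 0.74 (SE 0.084, 95% interval 0.55 to 0.93, adjusted p = 9.2e-05 by edgeR), which is 1.67-fold higher in neonates. All 13 alternatives passed, from 0.49 by library size alone to 0.79. The files sum transcripts to genes, so the forms of Rgs3 cannot be told apart in them.

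Rgs8 (ENSRNOG00000002369), an R4 protein best known from cerebellar Purkinje cells, had 34 and 36 counts in neonates and 8 and 17 in adults. These were 0.861 and 0.935 CPM (exact 95% Poisson intervals of 0.596 to 1.20 and 0.655 to 1.29, for counting error only) against 0.212 and 0.468 CPM (0.0914 to 0.417 and 0.273 to 0.750). The neonatal values lay above the adult values, while the interval of the second adult library overlapped those of both neonatal libraries. With no filter on low counts, over 19408 genes, its log2 fold change was 1.62 (SE 0.64) with an adjusted p of 0.069 by edgeR, so a difference was not called at this depth.

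**Figure D3:**
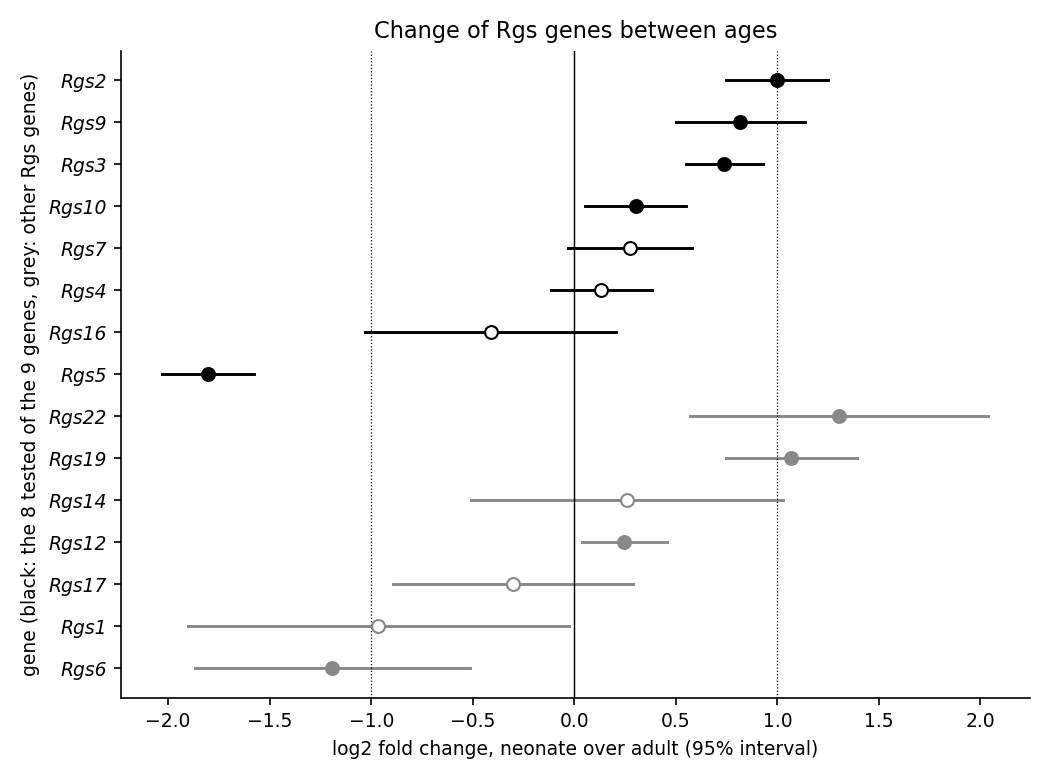
Log2 fold change, neonate over adult, of the tested RGS genes with 95% intervals from edgeR's quasi-likelihood test after TMM scaling. Filled points have an adjusted p under 0.05 and open points do not, and values above 0 are higher in neonates. Rgs5 at −1.80 and Rgs6 at −1.19 lie furthest below 0, and Rgs22 at 1.30 lies furthest above it.

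Rgs9 (ENSRNOG00000003800), the R7 protein of photoreceptors and of striatal neurons that respond to dopamine, was at 24.3 and 20.3 CPM in neonates and at 15.9 and 14.2 CPM in adults. The ages did not overlap. Neonate over adult, the log2 fold change was 0.82 (SE 0.14, 95% interval 0.50 to 1.14, adjusted p = 0.00095 by edgeR), which is 1.76-fold higher in neonates, and all 13 alternatives passed, between 0.57 and 0.97.

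Rgs7 (ENSRNOG00000021984), the R7 protein with wide expression in neurons, was at 20.4 and 22.2 CPM in neonates and at 23.3 and 18.5 CPM in adults, so that the adult libraries lay on either side of the neonatal ones. After TMM scaling both neonatal libraries, at 22.7 and 23.8, lay above the adult ones, at 21.6 and 16.9. For Rgs7 the log2 fold change was 0.27 (SE 0.13, 95% interval −0.032 to 0.58, adjusted p = 0.11 by edgeR). It passed in 2 of 13 alternatives, at 0.28 with a replicate block (adjusted p = 0.045) and at 0.46 without adult replicate 1 (adjusted p = 0.020).

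Rgs10 (ENSRNOG00000042592), a small R12 protein known from microglia and macrophages, was at 34.0 and 38.7 CPM in neonates and at 37.6 and 32.2 CPM in adults, which overlapped. After TMM scaling the neonatal libraries, at 37.8 and 41.4, lay above the adult ones, at 34.9 and 29.4. On that scale the log2 fold change was 0.30 (SE 0.11, 95% interval 0.054 to 0.55, adjusted p = 0.037 by edgeR). Of 13 alternatives 7 passed. By library size alone the value was 0.059 (adjusted p = 0.67), without neonate replicate 2 it was 0.24 (adjusted p = 0.12) and without adult replicate 2 it was 0.19 (adjusted p = 0.29). The call was also lost by DESeq2, with no low-count filter and with a mean CPM of 5 or more.

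The R7 proteins need partners, and 5 of these were followed. Gnb5 (ENSRNOG00000047799), the beta subunit that binds R7 proteins and without which they are degraded, was at 7.42 and 5.43 CPM in neonates and at 24.9 and 21.5 CPM in adults. It was 3.04-fold higher in adults (log2 fold change −1.61, SE 0.19, adjusted p = 0.00011 by edgeR). Rgs9 differed in the opposite direction between the same libraries. Gpr158, an orphan receptor that binds Rgs7 and brings it to the membrane, had 9 and 8 counts in neonates and 257 and 207 in adults, a log2 fold change of −4.58 (SE 0.37, adjusted p = 1.6e-05 by edgeR). The adult values were 6.80 and 5.70 CPM. The membrane anchors Rgs7bp and Rgs9bp were below the filter, Rgs7bp at 3 and 16 counts against 27 and 32, and Rgs9bp at 0 in 3 libraries and at 3 counts in the second adult library. The receptor Gpr179 was listed at 0 in all 4 libraries. Gpr158 reached 1 CPM in the adult libraries alone and so could hardly have been called any other way, and with a mean CPM of 5 or more it was not tested, which left Gnb5.

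Other RGS genes showed both directions. Of 11 further family members in the file, 7 were tested, 3 were higher in neonates, 1 was lower and 3 did not pass, at a median log2 fold change of 0.25. Rgs19, of the RZ subfamily that acts on Gi and Gz, was at 15.9 and 16.3 CPM in neonates and at 9.21 and 8.98 CPM in adults, with a log2 fold change of 1.07 (SE 0.14, adjusted p = 0.00022 by edgeR). Rgs22, a large family member known from testis, was at 3.47 and 2.93 CPM against 1.69 and 1.38 CPM (1.30, SE 0.32, adjusted p = 0.0070 by edgeR). Rgs6, the R7 protein best known for ending the muscarinic signal in cardiac pacemaker cells, was at 3.04 and 2.67 CPM against 5.74 and 9.78 CPM (−1.19, SE 0.30, adjusted p = 0.0074 by edgeR). Both Rgs6 and Rgs22 lost their call without adult replicate 2, at −0.77 (adjusted p = 0.12) and 1.15 (adjusted p = 0.064). The third gene higher in neonates, Rgs12, was named for its place in this small count and stood at 0.25 (adjusted p = 0.043 by edgeR), against −0.00063 by library size alone. Its call was lost in 8 of 13 alternatives, by DESeq2 (adjusted p = 0.090) and without each of the 4 libraries in turn (0.062 to 0.27) among them. The 3 higher genes became 1 without adult replicate 2, where none was lower. Among the R7 genes, Rgs9 was thus higher in neonates and Rgs6 lower.

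The targets of RGS proteins are the G protein alpha subunits. Of 12 tested, 1 was higher in neonates, 6 were lower and 5 did not pass, at a median log2 fold change of −0.41. Of all genes tested, 31.2% were higher and 31.1% lower. By library size alone, where 6000 of the 13843 genes tested were lower, 8 of the alpha subunits were lower. The call of Gna12, 1 of the 6 at −0.28, was lost without adult replicate 1 (−0.23). Gnaq, the alpha subunit of Gq that activates phospholipase C beta, was at 6.94 and 8.36 CPM in neonates and at 24.6 and 29.1 CPM in adults, with a log2 fold change of −1.57 (SE 0.14, adjusted p = 3.3e-05 by edgeR). Its close relative Gna11 was at 7.78 and 8.57 CPM against 21.3 and 19.6 CPM (−1.08, SE 0.14, adjusted p = 0.00020). Gnai1, an inhibitory subunit of the Gi class, was at 11.3 and 11.7 CPM against 30.1 and 32.1 CPM (−1.19, SE 0.11, adjusted p = 3.2e-05). For these 3 genes, named because they passed with at least 2-fold, the ages did not overlap. The subunits of the Gi/o and Gq classes did not all differ, and the neuronal subunit Gnao1, named after its value was seen, was at 0.04 (adjusted p = 0.80). The single subunit that was higher in neonates was Gnas, of the stimulatory class that lies outside the usual targets of RGS proteins, at 0.63 (adjusted p = 0.0043).

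Of 12 beta and gamma subunits tested, 5 were higher in neonates, 2 were lower and 5 did not pass, at a median log2 fold change of 0.16. The 5 higher genes became 3 by library size alone. Gng4, a gamma subunit, was at 14.1 and 8.60 CPM in neonates and at 5.80 and 3.56 CPM in adults (1.53, SE 0.31, adjusted p = 0.0026 by edgeR). The other 4 higher genes, Gnb2, Gnb3, Gng3 and Gng11, lay between 0.34 and 0.73, and the lower genes were Gnb1 at −0.57 and Gng2 at −0.32, all named for their place in these small counts. Gng2 lost its call without neonate replicate 1 (adjusted p = 0.060) and without adult replicate 1 (0.11), and Gnb3 by library size alone, without neonate replicate 1 (0.081) and without adult replicate 2 (0.15).

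Of 5 effectors tested, Plcb2 reached 1 CPM in the adult libraries alone and did not pass, and of the other 4, 3 were lower in neonates, 0 were higher by edgeR and 1 did not pass (median log2 fold change −0.52). At an unadjusted p under 0.05, and by DESeq2 and limma-voom, 0 were higher as well. Kcnj3, a subunit of the potassium channel that Gi/o proteins open through beta and gamma subunits, was at 1.55 and 2.34 CPM in neonates and at 6.62 and 6.50 CPM in adults (−1.51, SE 0.28, adjusted p = 0.0016 by edgeR). The other lower effectors were the phospholipases Plcb4 at −0.73 and Plcb1 at −0.30. Plcb1 lost its call by DESeq2 (adjusted p = 0.061), without neonate replicate 2 (0.10) and without adult replicate 1 (0.14).

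Receptor kinases and arrestins, which end the signal at the receptor, also split between directions, with 3 of 7 higher in neonates, 2 lower and 2 that did not pass (median −0.23). Grk3 was at 4.91 and 5.32 CPM in neonates and at 28.5 and 28.4 CPM in adults, with a log2 fold change of −2.23 (SE 0.13, adjusted p = 4.2e-06 by edgeR). Grk4 was at 9.52 and 11.8 CPM against 5.53 and 6.31 CPM (1.09, SE 0.20, adjusted p = 0.0013). The other genes past the threshold were Grk6 at 0.40, Arrb2 at 0.58 and Grk5 at −0.40, and Grk5 lost its call without neonate replicate 1 (−0.31, adjusted p = 0.16), without adult replicate 2 (−0.20, adjusted p = 0.40), with RLE size factors, with TMM without mitochondrially encoded and ribosomal protein genes, by DESeq2 and by limma-voom (adjusted p between 0.051 and 0.062 in these 4).

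**Figure D4:**
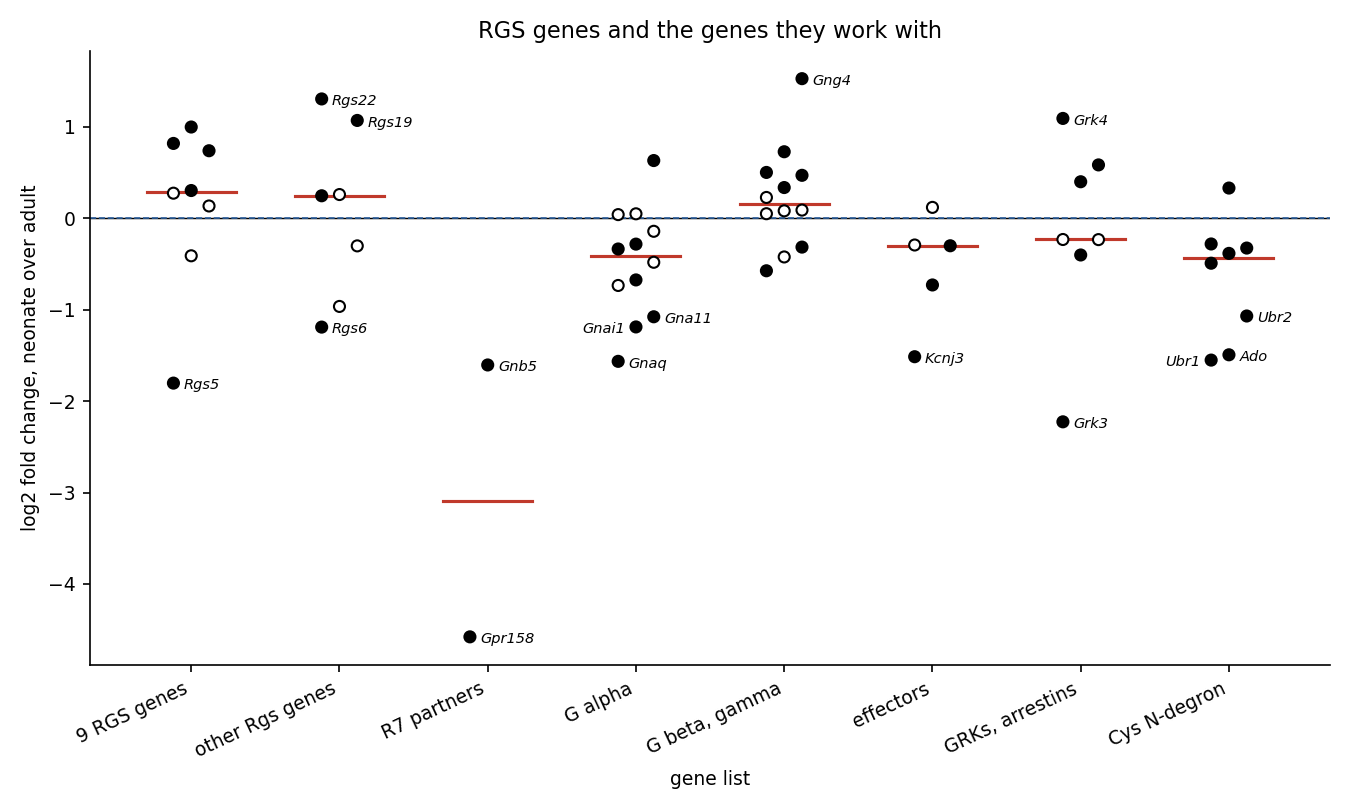
Log2 fold change, neonate over adult, of every tested gene of the RGS family and of 7 lists of partners, targets and related genes. Filled points have an adjusted p under 0.05 by edgeR and open points do not, the red bar is the median of a list, and the dashed line is the median of all 13843 genes. Gpr158 at −4.58 and Grk3 at −2.23 lie furthest below 0, but Gpr158 reached 1 CPM in the adult libraries alone, as did Plcb2 and Ado. The red bars include these genes, at −3.09 for the R7 partners, −0.30 for the effectors and −0.44 for the N-degron genes. The text gives medians of the last 2 lists without them.

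The proteins of Rgs4, Rgs5 and Rgs16 are known to begin with methionine and cysteine and to be broken down in the presence of oxygen by the cysteine branch of the N-degron pathway. Methionine aminopeptidases (Metap1, Metap2) remove the methionine, the dioxygenase Ado oxidises the cysteine with molecular oxygen, Ate1 adds arginine, and ubiquitin ligases of the Ubr family recognise the result. The first 12 codons of Rgs5, and of Rgs2 for contrast, are shown from RefSeq on GRCr8, at chr13:84381077-84381112 on the plus strand and chr13:58352631-58352666 on the minus strand, 5′ to 3′. Capitals mark the start codon and the codon after it, which is TGT (cysteine) in Rgs5 and CAA in Rgs2.

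Rgs5: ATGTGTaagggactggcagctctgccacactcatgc
Rgs2: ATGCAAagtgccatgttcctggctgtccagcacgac

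Of the 8 genes of this pathway, Ado reached 1 CPM in the adult libraries alone, so its call had only 1 direction open to it. Of the other 7 genes, 6 were lower in neonates and 1 was higher (median log2 fold change −0.38), against 31.1% lower of all genes tested. Ado was at 36 and 36 counts in neonates and 125 and 104 in adults, which is 0.912 and 0.935 CPM against 3.31 and 2.87 CPM (−1.49, SE 0.34, adjusted p = 0.0044 by edgeR). Ate1 was at 73.4 and 73.3 CPM against 122.9 and 121.8 CPM (−0.49, SE 0.076, adjusted p = 0.00051). Ubr1 was at 9.37 and 11.5 CPM against 34.2 and 38.1 CPM (−1.55, SE 0.12, adjusted p = 1.5e-05), and Ubr2 at 25.7 and 30.4 CPM against 62.3 and 77.4 CPM (−1.07, SE 0.12, adjusted p = 9.6e-05). Both adult libraries were above both neonatal ones in Ate1, Ubr1 and Ubr2. Of these, Ubr1 and Ubr2 were named because they passed with at least 2-fold. The gene that was higher in neonates, Metap2, stood at 0.33 (adjusted p = 0.0042 by edgeR) and lost its call by library size alone. The calls of the lower genes Metap1 (−0.28) and Ubr4 (−0.33) depended on single libraries. Metap1 was at −0.23 without neonate replicate 1, and Ubr4 was at −0.26 without neonate replicate 2. The amounts of the RGS proteins were not measured.

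Several RGS genes are induced within minutes to hours of a stimulus, so immediate early genes were read beside them. Of 13 tested, 1 was higher in neonates, 4 were lower and 8 did not pass, at a median log2 fold change of −0.29. In the same fit 31.1% of all genes tested were lower. By library size alone, where 6000 of the 13843 genes tested were lower, 9 of the immediate early genes were lower and none was higher. Without neonate replicate 2, 8 of these genes were lower, and with a replicate block 7. The stress factor Atf3 was at 4.97 and 6.70 CPM in neonates and at 19.3 and 21.4 CPM in adults (−1.56, SE 0.17, adjusted p = 8.5e-05 by edgeR), and the shear-responsive factor Klf2 at 4.08 and 4.78 CPM against 16.2 and 14.4 CPM (−1.54, SE 0.19, adjusted p = 0.00013). The other lower genes were Jun at −0.65 and Nr4a1 at −0.69, and the higher gene was Ier2 at 0.45, named for these small counts. Fos did not pass (−0.29, adjusted p = 0.36).

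Other cell type markers, read beside Rgs2, Rgs3 and Rgs9, also differed between the ages. Neuron markers were higher in neonates in 9 of 10 genes, at a median log2 fold change of 0.82 and sums of 3112 and 3295 CPM against 2222 and 2640 CPM. Cell cycle markers were higher in 7 of 7, with sums of 509 and 573 CPM against 151 and 155 CPM. Markers of Schwann and sustentacular cells had 3 higher and 3 lower of 9, with Fabp7, among the higher, above 1 CPM in neonates alone, with sums of 1339 and 2411 CPM against 2573 and 2817 CPM, and so did endothelial markers, 3 higher and 3 lower of 9 (1305 and 1357 CPM against 1493 and 1541 CPM). After TMM scaling the endothelial sums turned to 1451 and 1454 against 1384 and 1409. By library size alone the Schwann and sustentacular counts were 1 higher and 5 lower, and 5 were lower without neonate replicate 2. Of the endothelial markers 1 was higher by library size alone and without adult replicate 1. Glomus markers split as well, with 5 higher, 4 lower and 5 not past of 14, but 2 were higher by library size alone and without adult replicate 2, and 2 were lower without adult replicate 1. No marker of these 5 lists was at 0 in any library. Their part in the RGS results was not tested. The neonatal libraries differed in parathyroid markers, as given above, and Rgs2, Rgs3, Rgs5 and Rgs9 kept their calls without either of them. The second neonatal library still held Pth at 194 CPM against 0 in adults, so leaving out a library does not remove the parathyroid RNA, and its part was not tested. Without neonate replicate 1 the log2 fold changes were 0.98 for Rgs2, 0.71 for Rgs3, −1.90 for Rgs5 and 0.65 for Rgs9.

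The genes whose profile over the 4 libraries was most like that of Rgs5 were Zfp174, Braf and Mob1b, at Euclidean distances of 0.055, 0.058 and 0.072 between log2 CPM profiles centred on their means. Their log2 fold changes were −1.88, −1.78 and −1.75. In all, 58 genes lay within a distance of 0.2.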

How the data were processed

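RNA of pooled CBs was sequenced from neonates and adults, 2 libraries each. The authors selected poly A+ RNA, trimmed the reads, used STAR and Salmon (version 1.5.2 in the submitters' processing notes) on Rnor_6.0, and deposited estimated counts per gene, neither normalized nor filtered. Whether counting used strand is not given in the sources used here. Between 5.02% and 6.19% of genes per library have fractional estimated counts. Gnas is among them in every library, so reads shared between copies may have been split there. Rgs3 is fractional only in neonate replicate 1, at 3581.999, and is a whole number in the other libraries.

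Rounded counts were then analysed with edgeR 4.0.16, DESeq2 1.42.0 and limma 3.58.1 under R 4.3.3. Removed were 664 genes annotated as other than protein-coding by symbol, and 13634 genes with no annotation were kept. Genes that reached 1 CPM in 2 or more libraries were scaled by TMM (factors of 0.902 and 0.935 in neonates, 1.08 and 1.10 in adults) and compared, neonate over adult, by the quasi-likelihood test of edgeR without covariates, at an adjusted p under 0.05. The procedure was tested on simulated data. CPM in the text are scaled by library size, and fold changes come from the TMM fit. SEs were obtained from the fold change and its F value. The exact permutation test of a single value cannot go below 0.333 with 2 libraries against 2.

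The RGS genes and the lists of partners, targets and markers were chosen with earlier results of these data known. All 9 RGS genes are named, with Gnb5, Ado and Ate1, each gene of a list other than the marker lists that passed with at least 2-fold, and for Rgs5 the 3 genes of nearest profile (log2 CPM with a prior count of 2). From marker lists, sums and defining genes are given. Genes outside this rule are named for their place in a small count and were chosen after their values were seen. Where a symbol had more than 1 entry, as Gnas did, the one with more reads was used. Rgs11, Pecam1, Foxd3 and Col1a2 are not analysed here.

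Alternatives were RLE size factors, library size alone, TMM without mitochondrially encoded and ribosomal protein genes, DESeq2, limma-voom, no low-count filter, a mean CPM of 5 or more, non-coding genes kept, a replicate block and each library left out in turn. Sequences are RefSeq's on GRCr8, and all 9 RGS genes matched by symbol.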

Additional observations from a re-analysis of the deposited data

How the results depend on the processing

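Of 103 fold changes of the RGS genes under 13 alternatives, 94 kept their direction and their side of the threshold. Of the others, 8 were calls of Rgs7 and Rgs10 that came or went, and 1 turned, that of Rgs4 by library size alone (−0.11), a value past the threshold in no alternative. Between 3 and 5 RGS genes were higher in neonates and 1, Rgs5, was lower. No RGS gene was higher by at least 2-fold in the reported fit, and 1, Rgs2, was so under TMM without mitochondrially encoded and ribosomal protein genes. With each library left out in turn this count ran from 0 to 1, and it was 1 without neonate replicate 2 and without adult replicate 1. With every library kept, between 38 and 46 further genes passed, against 41 in the reported fit. They came from the remaining RGS family and the lists of partners, subunits, effectors, kinases, arrestins, the N-degron pathway and immediate early genes. The RGS genes followed here and the markers were not counted among them.

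Among 846 other fold changes 767 stayed and 18 turned. By library size alone these were Rgs12 (−0.00063), Gnao1 (−0.21), Gnaz (−0.20), Gnb4 (−0.20), Gng8 (−0.16), Gng10 (−0.15), Gng12 (−0.025) and Plcb3 (−0.13). With 1 library left out the values ran from −0.11 to 0.21 for Gnao1, −0.055 to 0.16 for Gnaz, −0.10 to 0.22 for Gnb4, −0.065 to 0.24 for Gng8, −0.19 to 0.56 for Gng12, −0.67 to 0.023 for Fos, −2.21 to 0.025 for Egr2 and −0.40 to 0.26 for Ier3. Of these genes Rgs12 alone was called in the reported fit. The cause was not tested.

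The replicate numbers are shared by both ages, but differences between replicates correlated across genes at only r = 0.060, so the numbers were not taken as pairs. With a replicate block 5 RGS genes were higher in neonates, Rgs7 being added, and 1 was lower. With one library left out, the remaining library of that age was assumed to vary like the other age. Rgs8, at 8 to 36 counts, is limited by depth.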
